A study of Drosophila melanogaster with 2 samples.

Results

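The genes described here encode translation initiation and elongation factors, the proteins that bring ribosomes to messenger RNA and move them along it. They were chosen by name alone: every gene whose short name in the deposited files starts with eIF, Ef1 or EF2, in upper or lower case. This gave 34 genes of the 17301 with a gene identifier, and 30 of them reached 1 FPKM in at least 1 library and entered the comparison. FPKM stands for fragments per 1000 nt of transcript per 1000000 mapped, and values are summed here over the transcripts of a gene. The other 4 genes, all eIF4E paralogs, stayed below 1 FPKM in both libraries and are given by value only.

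Poly(A) RNA of pooled Drosophila melanogaster embryos aged 0 to 16 h was sequenced as 1 library per cross. The first library came from embryos labelled as a knockdown of Lim3, a LIM-homeodomain gene of motor neurons. They carried the GAL4 driver P{en2.4-GAL4}e22c over the interference construct P{TRiP.JF02125}attP2, with P{tGPH}4/+, in a y1 w* or y1 w*/y1 v1 background. The control embryos had the same background, the same driver and the same P{tGPH}4/+, with P{y+t7.7=CaryP}attP2 in place of the interference construct. The parent driver line also carried the balancer TM3, Ser1. The driver turns constructs on early in development, and each library is 1 collection of whole embryos kept at 25 °C, so stages and tissues are mixed in it. The study compared the crosses to ask what embryos with less Lim3 express.

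No difference below has a replicate check, since each cross has 1 library, and intervals of ratios cover counting error only. Depth read from the smallest values was about 34000000 fragments under the knockdown label and 24100000 in the control. Lim3 itself was at 18.5 FPKM under the knockdown label and 5.81 FPKM in the control, which goes against the label, so that library is called by its label throughout. Whether the labels are exchanged, or fragments of the interference construct were counted as Lim3, was not tested, and the sign of every difference below rests on the labels as given. Markers fitting embryos were present in both libraries, with maternal genes (bcd, nos, osk, gnu) at 24.5 to 71.1 FPKM under the knockdown label and 27.0 to 89.2 FPKM in the control. Their directions differed, with bcd and gnu lower under the knockdown label and nos and osk higher. The early zygotic genes ftz, zen and eve were at 6.61 to 14.3 FPKM under the knockdown label and 4.20 to 15.7 FPKM in the control, with zen higher under the knockdown label and ftz and eve lower. The neuronal gene elav was at 15.2 FPKM under the knockdown label and 16.3 FPKM in the control, and the muscle gene Mhc at 286 FPKM in the knockdown-labelled library, against 265 FPKM in the control. The 8 testis genes, of a tissue that embryos lack, summed to 2.94 FPKM in the knockdown-labelled library, against 3.26 FPKM in the control. Of these, 1 passed the filter (Mst87F, 2.18 FPKM under the knockdown label and 2.12 FPKM in the control), and aly was listed at 0 in the library labelled knockdown. In pools of whole embryos, a difference in the share of cells that express a gene and a difference in RNA per cell cannot be told apart.

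Translation of a capped messenger starts when eIF4E binds the cap, the scaffold eIF4G joins it to the helicase eIF4A, and eIF3 links this complex to the small ribosomal subunit. The subunit carries the initiator transfer RNA on eIF2 and scans to the start codon with eIF1 and eIF1A, after which eIF5 and eIF5B complete the ribosome. EF1alpha then delivers each aminoacyl-transfer RNA and EF2 moves the ribosome onward by a codon. In Drosophila embryos this machinery is first supplied by maternal messengers, and it supports the ribosome production of growing tissues later.

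Levels of the translation factor genes spanned a wide range, and a few genes held most of it. Together the 34 genes held 21965 FPKM under the knockdown label and 26638 FPKM in the control. Of the sum over all genes this was 1.96% under the knockdown label and 1.95% in the control. Of the sum without the cytosolic ribosomal protein genes they held 3.65% under the knockdown label and 4.04% in the control. The 6 most abundant genes, Ef1alpha48D, eIF-5A, EF2, eIF-4a, Ef1beta and Ef1gamma, made up 84.3% of the group's FPKM under the knockdown label and 85.3% in the control. Under 10 FPKM in both libraries lay Ef1alpha100E, eIF4G2 and the eIF4E paralogs.

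**Figure D1:**
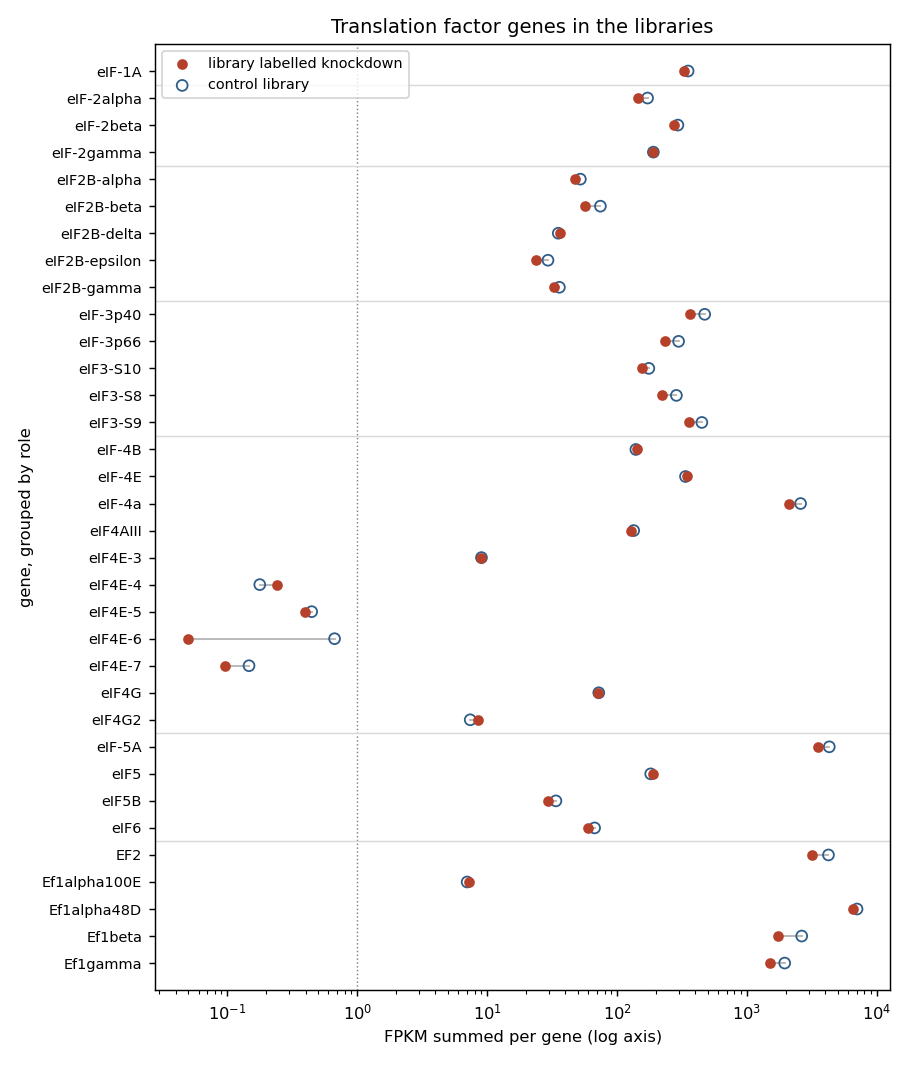
FPKM per gene on a log axis for the 34 translation factor genes, grouped by role, with filled points for the library labelled knockdown, open points for the control library and a dotted line at 1 FPKM. Most pairs lie close together, from Ef1alpha48D at 6508 FPKM under the knockdown label and 7028.9 FPKM in the control down to eIF4E-7 at 0.0959 FPKM under the knockdown label and 0.147 FPKM in the control, and the widest gap is at eIF4E-6 near the floor of detection.

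None of the 30 genes differed by 2-fold or more on the scale log2((knockdown + 1)/(control + 1)), the size rule used here. Across all 10576 genes tested, the library labelled knockdown was higher by this rule for 1.02% and lower for 1.37%. At 1.5-fold, Ef1beta was the 1 gene on the lower side, where the share of all tested genes was 3.13%, and 0 were on the higher side, where it was 2.71%. Below 0 lay 24 of the 30 genes, against 56.5% of all tested genes. The median log2 difference was -0.16 (range -0.60 to 0.18) against -0.04 for all tested genes. The 1350 genes at 100 FPKM or more in either library had a median of -0.18, with 73.7% of them below 0. They include abundant translation factor and cytosolic ribosomal protein genes, but not the translation factor genes under 100 FPKM, such as those of eIF2B. The sets are therefore not alike.

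These directions depend on how the libraries are scaled. Scaling both to an equal FPKM sum added 0.28 to the log2 differences and moved the median of all tested genes by 0.26, to 0.21. It turned the median of the translation factor genes to 0.12, with 11 of 30 below 0. The share of all tested genes below 0 was not counted at that scaling. Over all tested genes, 108 were past 2-fold on the higher side and 145 on the lower side as deposited, against 175 higher and 109 lower at an equal FPKM sum. The 11 genes that kept a difference below 0 at an equal FPKM sum were Ef1beta, EF2, Ef1gamma, eIF-3p40, eIF3-S8, eIF-3p66, eIF3-S9, eIF2B-beta, eIF2B-epsilon, eIF-4a and eIF-5A. The other scalings tried shift the differences the same way by less (0.13 and 0.08), so these 11 genes stay below 0 there by arithmetic. They comprise 3 of the 5 elongation factor genes and 4 of the 5 eIF3 genes named by the rule. Ratios between genes within a library, given below, do not depend on the scaling.

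The elongation factors held the lowest log2 difference of the 30 genes, that of Ef1beta. Their median log2 difference was -0.37, and it was -0.09 at an equal FPKM sum. Ef1beta, which encodes a subunit of the exchange complex that reloads EF1alpha with GTP, was at 1735 FPKM in the knockdown-labelled library, against 2637 FPKM in the control (log2 -0.60, ratio 0.658, interval 0.650 to 0.666). It lies on chromosome 2R from 12755727 to 12756785 in the coordinates of the files, which use the scaffold names of Release 5. Ef1gamma, the structural partner of Ef1beta on chromosome 3R from 25045894 to 25047831, was at 1512 FPKM in the knockdown-labelled library, against 1950 FPKM in the control (log2 -0.37, ratio 0.775). EF2, the translocase gene, was at 3145 FPKM under the knockdown label and 4236 FPKM in the control (log2 -0.43, ratio 0.742, 0.739 to 0.746).

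The main EF1alpha gene had a higher log2 difference than the genes of its exchange complex. Ef1alpha48D was at 6508 FPKM in the knockdown-labelled library, against 7028.9 FPKM in the control (log2 -0.11, ratio 0.926, 0.922 to 0.930), and its difference was 0.17 at an equal FPKM sum, where that of Ef1gamma was -0.09. The messenger of Ef1alpha48D was 3.75 times as abundant as that of Ef1beta under the knockdown label and 2.67 times in the control. Against Ef1gamma the ratio was 4.30 under the knockdown label and 3.60 in the control, and against EF2 it was 2.07 under the knockdown label and 1.66 in the control. eEF1delta, the remaining exchange subunit, is not caught by the naming rule, and it was at 409 FPKM under the knockdown label and 533 FPKM in the control (log2 -0.38). The paralog Ef1alpha100E was at 7.19 FPKM under the knockdown label and 7.01 FPKM in the control (log2 0.03), 905-fold below Ef1alpha48D under the knockdown label and 1003-fold below it in the control. Reads shared between these paralogs could have been split by the authors' software, so the level of the rare copy is uncertain.

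**Figure D2:**
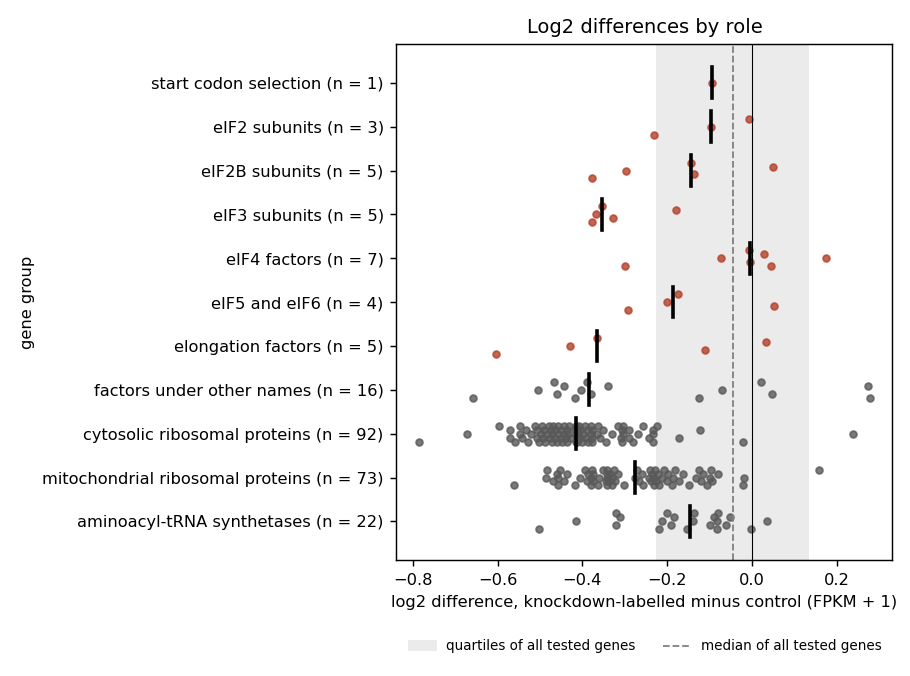
Log2 differences (library labelled knockdown minus control, with 1 FPKM added) of the tested genes in each role in red, and of related gene groups in grey; each point is a gene, bars are medians, and the band and dashed line give the quartiles and median of all 10576 tested genes. Elongation factors (median -0.37) and eIF3 subunits (-0.35) lie toward the cytosolic ribosomal protein genes (-0.42), while the eIF4 factors have a median of -0.00.

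The eIF3 subunits, which form the scaffold on the small ribosomal subunit, were lower in the library labelled knockdown in all 5 genes named by the rule, and in 4 of them at an equal FPKM sum. eIF-3p40, the eIF3h gene, was at 363 FPKM in the knockdown-labelled library, against 472 FPKM in the control (log2 -0.38, ratio 0.769, 0.751 to 0.787). eIF3-S9, the eIF3b gene, was at 358 FPKM in the knockdown-labelled library, against 449 FPKM in the control (log2 -0.33), and eIF3-S8, the eIF3c gene, at 222 FPKM under the knockdown label and 286 FPKM in the control (log2 -0.37). eIF-3p66, the eIF3d gene whose product can bind the cap of some messengers in mammals, was at 232 FPKM under the knockdown label and 297 FPKM in the control (log2 -0.35). The gene of the largest subunit, eIF3-S10 or eIF3a, was at 155 FPKM in the knockdown-labelled library, against 175 FPKM in the control (log2 -0.18, ratio 0.882), and its sign turned at an equal FPKM sum.

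Genes of the other 8 eIF3 subunits carry older names in the files and were identified through their current symbols. The paralogs CG8335 (eIF3f2), CG4810 (eIF3d2) and CG10881 (eIF3g2) were left out to keep 1 gene per subunit. CG8335 was at 0.871 FPKM under the knockdown label and 1.04 FPKM in the control (log2 -0.12). CG4810 and CG10881 stayed below 1 FPKM in both libraries. All 13 subunits lay below 0, with a median log2 difference of -0.40 (range -0.66 to -0.07), and 11 of 13 lay below 0 at an equal FPKM sum. Their median was then -0.12, against 0.21 for all tested genes. The lowest was CG8636, eIF3g1, at 307 FPKM in the knockdown-labelled library, against 485 FPKM in the control (log2 -0.66, ratio 0.633). Int6, the eIF3e gene, was at 345 FPKM under the knockdown label and 490 FPKM in the control (log2 -0.50), CG5642, eIF3l, at 283 FPKM in the knockdown-labelled library, against 391 FPKM in the control (log2 -0.47), and CG9769, eIF3f1, at 424 FPKM under the knockdown label and 584 FPKM in the control (log2 -0.46). Trip1 (eIF3i), CG10306 (eIF3k) and Tango7 (eIF3m) had log2 differences of -0.42, -0.44 and -0.40. The subunits were not alike, since Adam, the gene of the loosely attached eIF3j, was at 87.3 FPKM under the knockdown label and 91.8 FPKM in the control (log2 -0.07). The summed level of the 13 genes was 3930 FPKM in the knockdown-labelled library, against 5268 FPKM in the control. This ratio of 0.746 compares with 0.823 for the sum over all genes. Cytosolic ribosomal protein genes, with a ratio of 0.738, held 46.3% of that sum under the knockdown label and 51.7% in the control. Without them the sum was 602508 FPKM under the knockdown label and 658735 FPKM in the control.

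**Figure D3:**
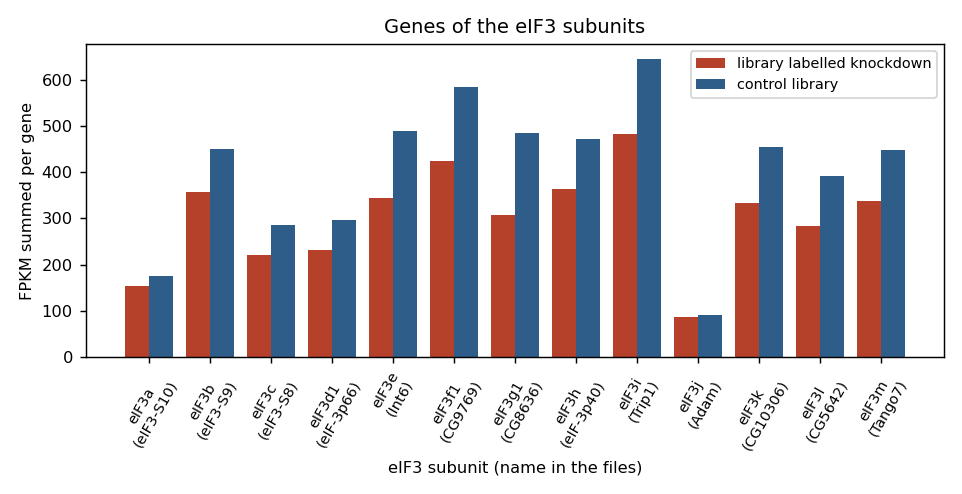
FPKM of the 13 eIF3 subunit genes, with the current subunit name and the name in the files below each pair, red bars for the library labelled knockdown and blue bars for the control library. All red bars are lower than their blue partners, with the widest gap at eIF3g1 (307 FPKM in the knockdown-labelled library, against 485 FPKM in the control) and the narrowest at eIF3j (87.3 FPKM under the knockdown label and 91.8 FPKM in the control).

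The cap-binding and helicase factors differed in size and sign. eIF-4a, the gene of the helicase eIF4A on chromosome 2L from 5981764 to 5985909, was at 2101 FPKM under the knockdown label and 2584 FPKM in the control (log2 -0.30, ratio 0.813, 0.806 to 0.820). eIF-4E, the main cap-binding gene on chromosome 3L from 9392718 to 9395560, was at 347 FPKM in the knockdown-labelled library, against 336 FPKM in the control (log2 0.05, ratio 1.03, 1.01 to 1.06), and its sign turned with the most abundant transcript alone (log2 -0.19). eIF4G, the scaffold gene on chromosome 4, was at 71.9 FPKM in the knockdown-labelled library, against 72.2 FPKM in the control (log2 -0.01), and eIF-4B, whose product stimulates the helicase, at 142 FPKM under the knockdown label and 139 FPKM in the control (log2 0.03). The messenger of eIF-4a was 6.06 times as abundant as that of eIF-4E under the knockdown label and 7.69 times in the control. The ratio of eIF-4E to eIF4G was 4.83 under the knockdown label and 4.65 in the control. eIF4AIII, a helicase of the exon junction complex rather than of initiation, was at 128 FPKM in the knockdown-labelled library, against 134 FPKM in the control (log2 -0.07).

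The paralogs of the cap-binding and scaffold genes that the naming rule caught lay under 10 FPKM. Relatives under other names were more abundant, with 4EHP, a cap-binding repressor, at 30.6 FPKM under the knockdown label and 30.1 FPKM in the control (log2 0.02). eIF4E-3, known in Drosophila for its role in male meiosis, was at 9.004 FPKM under the knockdown label and 9.035 FPKM in the control, on about 319 fragments under the knockdown label and 226 in the control. This was 38.5-fold below eIF-4E under the knockdown label and 37.2-fold below it in the control. eIF4G2, also known from the male germ line, was at 8.49 FPKM under the knockdown label and 7.40 FPKM in the control (log2 0.18, ratio 1.15, 1.07 to 1.23), the highest log2 difference of the 30 genes. It shares 779 exonic nucleotides with CG33111 on the same strand in the Release 6 annotation. Of the 8 testis genes, 7 did not reach 1 FPKM and Mst87F was above it in both libraries, as given above. The germ cell genes vas, pgc and nos were at 13.4 to 103 FPKM under the knockdown label and 10.6 to 102 FPKM in the control. All 3 were higher under the knockdown label. Which cells express eIF4E-3 and eIF4G2 here was not tested. The other paralogs were below 1 FPKM in both libraries: eIF4E-4 at 0.243 FPKM in the knockdown-labelled library, against 0.178 FPKM in the control, eIF4E-5 at 0.396 FPKM under the knockdown label and 0.446 FPKM in the control, and eIF4E-7 at 0.0959 FPKM in the knockdown-labelled library, against 0.147 FPKM in the control. eIF4E-6 was at 0.0499 FPKM in the knockdown-labelled library, against 0.669 FPKM in the control, on about 1 fragment under the knockdown label and 11 in the control (ratio 0.0747, 0.00149 to 0.442). Its difference rests on these few fragments and on a short transcript, for which the fragment estimate is least certain.

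The 3 eIF2 genes, whose products carry the initiator transfer RNA, had log2 differences from -0.23 to -0.01, and all 3 lay above 0 at an equal FPKM sum. eIF-2beta was at 275 FPKM under the knockdown label and 294 FPKM in the control (log2 -0.10), and eIF-2gamma, the GTP-binding subunit, at 189 FPKM under the knockdown label and 190 FPKM in the control (log2 -0.01). eIF-2alpha, the subunit that stress kinases phosphorylate, was at 146 FPKM in the knockdown-labelled library, against 172 FPKM in the control (log2 -0.23, ratio 0.851, 0.821 to 0.883). eIF-2gamma shares 352 exonic nucleotides with Su(var)3-9 on the same strand in the Release 6 annotation, and Su(var)3-9 was at 25.7 FPKM under the knockdown label and 34.7 FPKM in the control, so some fragments of this pair cannot be told apart. eIF-1A, which opens the scanning ribosome, was at 330 FPKM in the knockdown-labelled library, against 352 FPKM in the control (log2 -0.09, ratio 0.936), and its partner eIF1, CG17737 in the files, at 605 FPKM in the knockdown-labelled library, against 585 FPKM in the control (log2 0.05).

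eIF2B, which recharges eIF2 with GTP, was expressed well below its substrate. The 5 subunit genes averaged 39.4 FPKM under the knockdown label and 45.4 FPKM in the control. The mean of the eIF2 genes was 5.16-fold higher than this under the knockdown label and 4.81-fold higher in the control. They were divided, with eIF2B-beta at 57.0 FPKM in the knockdown-labelled library, against 74.4 FPKM in the control (log2 -0.38, ratio 0.767, 0.726 to 0.811). eIF2B-epsilon, the catalytic subunit gene, was at 23.7 FPKM under the knockdown label and 29.4 FPKM in the control (log2 -0.30). Its most abundant transcript over both libraries together, FBtr0070351, had a log2 difference of 0.11. The other, FBtr0070350, had one of -0.71, and it made up 40.7% of the gene under the knockdown label and 55.8% in the control. The gene eIF2B-delta was at 36.5 FPKM in the knockdown-labelled library, against 35.3 FPKM in the control (log2 0.05). eIF2B-alpha and eIF2B-gamma had log2 differences of -0.14 each.

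The remaining factors also differed among themselves. eIF-5A, which relieves stalled ribosomes and was the second most abundant gene of the group in both libraries, was at 3508 FPKM under the knockdown label and 4298 FPKM in the control (log2 -0.29, ratio 0.816, 0.808 to 0.824). eIF5, which triggers GTP hydrolysis on eIF2, was at 188 FPKM under the knockdown label and 181 FPKM in the control (log2 0.05), and eIF5B, the subunit-joining GTPase, at 29.3 FPKM in the knockdown-labelled library, against 33.8 FPKM in the control (log2 -0.20). eIF5 shares 2588 exonic nucleotides with CG46312 on the same strand in the Release 6 annotation, so its fragments may not be its own alone. eIF6, which keeps the large subunit from joining too early, was at 59.4 FPKM in the knockdown-labelled library, against 67.1 FPKM in the control (log2 -0.17). Of the 30 tested genes, 17 lie in a bundle with another gene in the files and 13 do not, and the median of the 13 was -0.20.

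Transcript length moved with the difference across the whole table. The median log2 difference was -0.16 in the decile of genes with the shortest longest transcript (110 to 640 nt) and 0.05 in the decile with the longest (5084 nt and more). After subtraction of the median of its length decile, EF2 stood at -0.44, Ef1beta at -0.45, eIF3-S8 at -0.38 and Ef1gamma at -0.28, while eIF-5A stood at -0.16 and eIF4G2 at 0.12. The median of the translation factor genes was then -0.07, with 19 of 30 below 0. The subtraction by its construction puts the median of all tested genes at 0, so the 56.5% given above is not the share to read this count against. The part of length in these results was not tested.

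**Figure D4:**
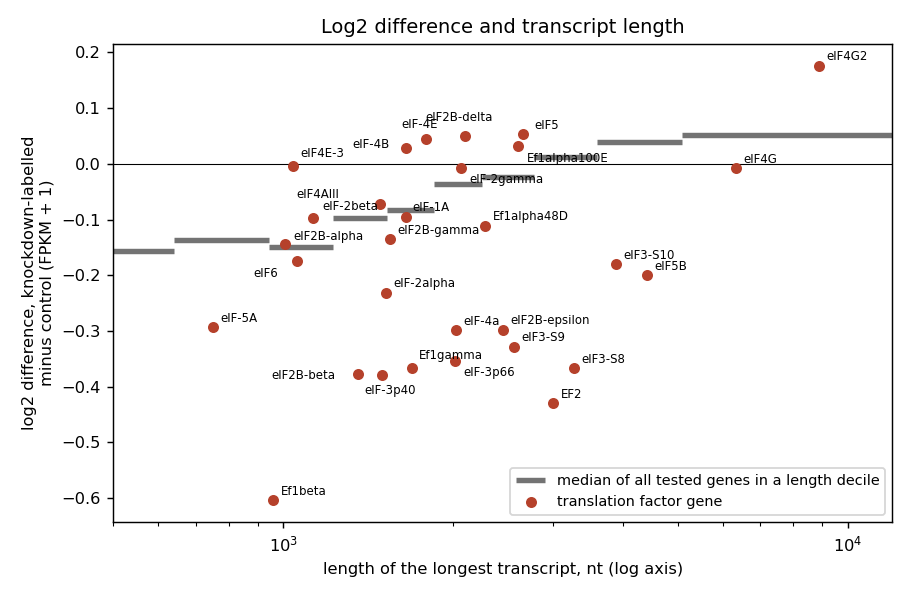
Log2 difference (library labelled knockdown minus control, with 1 FPKM added) of the 30 tested translation factor genes against the length of their longest transcript on a log axis, with grey bars for the median of all tested genes in each length decile. EF2 (-0.43) and eIF3-S8 (-0.37) lie far below the bars at their length, and Ef1beta (-0.60) is the lowest point.

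Transcripts of the same gene differed according to their 3′ untranslated region (UTR). For 13 of the genes, transcripts with the same coding length in the Release 6 annotation but different 3′ UTR lengths reached 5 FPKM in at least 1 library. In all 13 the transcripts with the longest 3′ UTR had a higher log2 difference than those with the shortest, by a median of 0.42 (range 0.02 to 0.90). The same held for 87.2% of the 903 genes of the table that could be compared, with a median of 0.54, so it held across the table and the share among translation factors is read against that. For 5′ UTRs the longer form was the higher in 5 of 10 translation factor genes and in 48.6% of 967 genes of the table. In eIF3-S9, eIF3-S8 and eIF-5A the same transcripts made the 5′ and the 3′ pair, so the UTRs were not told apart there. Nor were they in Ef1alpha48D, where FBtr0331927 was the long form of both pairs. Its short 5′ form, FBtr0088035, held 5176 of the 5181 FPKM of the short 3′ forms under the knockdown label. In eIF-1A the transcript with the longest 3′ UTR, FBtr0343927, was the short form of the 5′ pair, so its 2 comparisons are linked as well. The Ef1gamma pair rests on FBtr0085393, described below as uncertain. It leaves out FBtr0339893, 87.2% of the gene under the knockdown label and 87.9% in the control, which had no Release 6 entry. Both comparisons are within a gene and do not depend on the scaling of the libraries.

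In several genes the long form was higher and the short form lower in the library labelled knockdown, as deposited. Unlike the gap between forms, these directions depend on the scaling. An equal FPKM sum adds 0.28 to log2 differences. This exceeds the shortfall of the short forms of Ef1alpha48D (log2 -0.19), eIF-1A (-0.23) and eIF-2gamma (-0.19), though not that of eIF-4a (-0.35). The eIF-4a transcript with a 3′ UTR of 739 nt was at 149.5 FPKM under the knockdown label and 109 FPKM in the control, whereas the form with 271 nt was at 1648 FPKM under the knockdown label and 2108 FPKM in the control. The 796 nt form of Ef1alpha48D was at 1327 FPKM under the knockdown label and 1129 FPKM in the control, and its 554 nt forms at 5181 FPKM under the knockdown label and 5900 FPKM in the control. The long form made up 20.4% of the pair under the knockdown label and 16.1% in the control. For eIF-1A the 1069 nt form was at 108 FPKM under the knockdown label and 91.8 FPKM in the control, and the 548 nt forms at 222 FPKM under the knockdown label and 260.1 FPKM in the control. The form of eIF-2gamma with 523 nt was at 40.1 FPKM under the knockdown label and 24.04 FPKM in the control, and the form with 383 nt at 131 FPKM under the knockdown label and 149 FPKM in the control. In Ef1beta the 201 nt form was close to level, at 95.1 FPKM under the knockdown label and 96.9 FPKM in the control, so the lower sum of that gene lay in the 50 nt form, at 1640 FPKM in the knockdown-labelled library, against 2540 FPKM in the control. EF2 had nearly the same value for both, with log2 differences of -0.41 for the 398 nt form and -0.44 for the 161 nt forms.

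**Figure D5:**
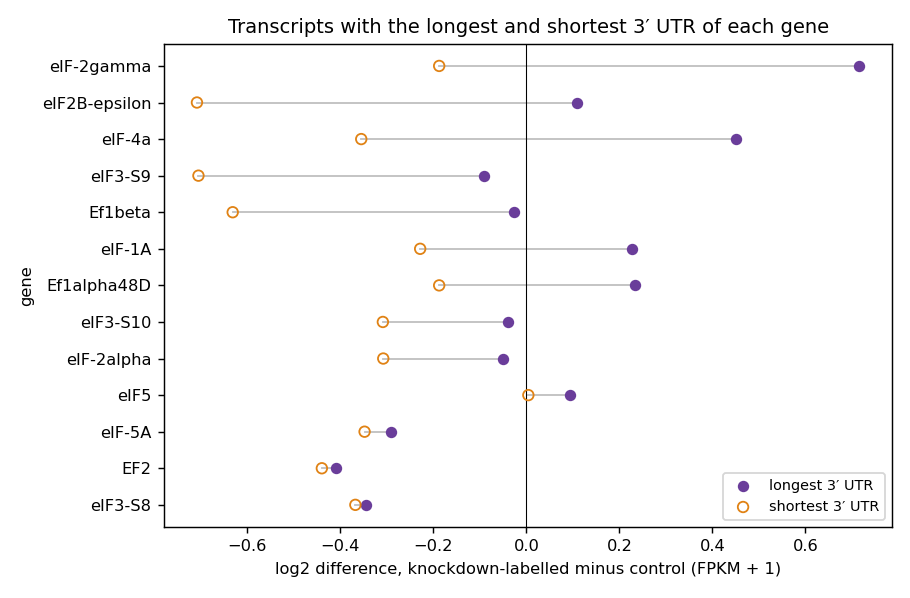
Log2 difference (library labelled knockdown minus control, with 1 FPKM added) of the transcripts with the longest (filled) and the shortest (open) 3′ UTR of the same gene and coding length, for the 13 translation factor genes with both. The filled point is to the right in every gene, from a gap of 0.90 in eIF-2gamma to 0.02 in eIF3-S8.

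The division of fragments among near-identical transcripts is an estimate, and Ef1alpha100E shows its limits. The 4 transcripts of Ef1alpha100E are 2591 to 2606 nt long, and FBtr0085833 was at 2.54 FPKM under the knockdown label and 0.0735 FPKM in the control while FBtr0085835 was at 1.02 FPKM in the knockdown-labelled library, against 3.29 FPKM in the control. Their sum was level between the libraries, as given above. In Ef1gamma, FBtr0085393 was at 0.0650 FPKM in the knockdown-labelled library, against 29.4 FPKM in the control, 1.51% of the gene there. Such values of single transcripts are therefore less certain than those of genes.

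Other genes of the translation pathway were taken from lists, whose counts are read against the 56.5% of all tested genes below 0 and the 3.13% past 1.5-fold on the lower side. Of 16 tested initiation and elongation factor genes that carry other names in the files, 12 lay below 0, with a median of -0.38. CG8636 was the 1 gene past 1.5-fold. The 8 eIF3 subunit genes and the paralog CG8335, given above, are among the 16 and all lay below 0. The rest were divided. eEF1delta (log2 -0.38), CG7414 or eIF2A (-0.34) and ligatin or eIF2D (-0.39) lay below 0. CG17737 or eIF1 (0.05), 4EHP (0.02), EfSec (0.28) and Rbp2 or eIF4H1 (0.27) lay above it. CG7414 and 4EHP are counted again among the regulators and partners, and EfSec among the mitochondrial and selenocysteine factors. Of 20 regulators and partners, 13 lay below 0 (65%, near the share of all tested genes) with a median of -0.15 and 0 past 1.5-fold. pAbp, the poly(A)-binding protein gene, was at 367 FPKM under the knockdown label and 483 FPKM in the control (log2 -0.39), and me31B, a repressor of maternal messengers, at 605 FPKM under the knockdown label and 849.7 FPKM in the control (log2 -0.49). On the higher side were Thor, the 4E-binding protein that blocks eIF4E, at 205 FPKM in the knockdown-labelled library, against 174 FPKM in the control (log2 0.24), and NAT1, an eIF4G relative, at 79.7 FPKM in the knockdown-labelled library, against 65.8 FPKM in the control (log2 0.27). Among 8 mitochondrial and selenocysteine factors 7 lay below 0 and 1 past 1.5-fold on the lower side, with a median of -0.24. The mitochondrial release factor gene CG5705 was that gene, at 14.7 FPKM under the knockdown label and 22.7 FPKM in the control (log2 -0.60), and EfSec, the selenocysteine elongation factor gene, at 3.75 FPKM in the knockdown-labelled library, against 2.92 FPKM in the control (log2 0.28).

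Other parts of the translation apparatus were set beside the factors. The 92 tested cytosolic ribosomal protein genes had a median of -0.42 with 91 below 0, the 73 mitochondrial ribosomal protein genes -0.28 with 72 below 0, and the 22 aminoacyl-tRNA synthetase genes -0.15 with 21 below 0. These medians carry the same scaling shift as those of the translation factors. No difference between these groups was tested, since genes of 1 library pair are not replicates.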

How the data were processed

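Poly(A) RNA of embryos was sequenced as 1 library per cross. The authors deposited 1 FPKM value for each transcript of a library, per the file headers. A directional kit was used, per the labels' protocols. TopHat and Cuffdiff are named in the submitters' processing notes. For settings, use of strand, genome build and annotation release: not given in the sources used here. Fragments of overlapping genes may have been shared between them. The 365 transcripts without a gene identifier (0.0227% of FPKM under the knockdown label, 0.0246% in the control) were left out.

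FPKM were summed per gene identifier. Differences are log2((knockdown + 1)/(control + 1)), which understates those of genes with low FPKM. Genes reaching 1 FPKM in either library were tested against the size rule of 2-fold, with 1.5-fold beside it. No p-values are given. The value of 1 fragment was read from the mode of low FPKM times length in genes with 1 transcript of 1000 to 3000 nt, and estimated fragments gave exact binomial 95% intervals of ratios. Shorter transcripts were not part of this estimate, so their fragment numbers are less certain. The gene sums, the 2-fold rule and the fragment estimate were run on simulated counts, with changes larger than 2-fold in well expressed genes. The simulation held no variation between collections and no UTR step. It therefore does not bear on smaller differences, on changes in genes near the floor or on single transcripts. Current symbols came from a gene table for 32 of the 34 genes, and UTR lengths from Ensembl's Release 6 annotation for transcripts whose length matched within 1 nt. The genes and lists were chosen with earlier results of these data known. Named in full by rule were the 10 most abundant genes, any past 2-fold, the 3 highest and 3 lowest differences, and the eIF4E, eIF4G, eIF4A, eIF3 and Ef1alpha sets. The UTR comparison was added after the values were seen. Python 3.11.15, pandas 2.3.3 and scipy 1.17.1 were used.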

Additional observations from a re-analysis of the deposited data

How the results depend on the processing

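The count of translation factor genes past 2-fold was 0 under each of the 9 alternatives tried with it. A pseudocount of 5, a filter at 5 FPKM and no filter could not have raised it. The first shrinks differences, the second only removes genes, and the third adds genes under 1 FPKM that cannot reach 2-fold on this scale. The median log2 difference of -0.16 turned to 0.12 at an equal FPKM sum and was -0.0322 at an equal sum without the ribosomal protein genes, and the count below 0 was 11 of 30 at an equal FPKM sum. The medians of all tested genes under these scalings were 0.21 and 0.07. Signs of single genes changed for 13 of 30 at an equal FPKM sum, 7 without the ribosomal protein genes and 4 with a median ratio of 1. They changed for 5 with the length decile median subtracted and 4 with the most abundant transcript only (Ef1alpha100E, eIF-4E, eIF2B-epsilon and eIF4G). A pseudocount of 5 or 0.1 or another filter gave 0 changes, but neither step can change the sign of a gene. The share of the sum was 3.65% under the knockdown label and 4.04% in the control without ribosomal protein genes, and 1.77% under the knockdown label and 1.80% in the control with the most abundant transcript of each gene, since both change what is counted. With a filter at 5 FPKM the 2-fold calls over all genes were 75 higher and 114 lower, with a pseudocount of 5 they were 52 and 90, and with 0.1 they were 177 and 210, against 108 and 145 as reported. At an equal FPKM sum they were 175 and 109, so the majority direction turned. At 1.5-fold, no translation factor gene remained at an equal FPKM sum, without ribosomal proteins, with a median ratio of 1 or with length subtracted, and 2 were past it with no filter, Ef1beta and eIF4E-6. No paired analysis was possible because each group has 1 library. With 1 library a group, differences between embryo collections cannot be told apart from those between crosses, and depth limits the paralogs under 1 FPKM.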
